A study of Drosophila melanogaster with 6 samples.

Results

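The peaks described here are the ChIP peaks that were listed on Uextra, an artificial sequence in FlyBase release 5 of the Drosophila melanogaster genome. They are the rows of the deposited peak list whose sequence name is Uextra, whatever their width, and they number 6713 of 9881 peaks. ChIP-seq (chromatin immunoprecipitation with sequencing) was carried out on white prepupae, the short stage at the start of metamorphosis before the cuticle darkens. The series holds 3 ChIP libraries, precipitated with a monoclonal mouse antibody listed against tango, and 3 libraries of input DNA. All 6 came from the strain Y cn bw sp, which carries oc[R3.2] and y[1], the eye colour alleles cn[1] and bw[1] with sp[1], the alleles Gr22d[1] and Gr22b[1], CG33964[R4.2], and, besides these, Rh6[1], GstD5[1], MstProx[1], lab[R4.2] and LysC[1]. The labels give no tissue, no pooling of animals and no origin of the replicates. The library titles name TCF and the antibody description names tango, so no protein is named for the peaks. The series has 1 peak list, with no value for any single library, and which libraries went into it is not stated. Replicate error is therefore unknown, no test between libraries could be made, and the values below describe peaks of that list.

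Uextra is made of short scaffolds that could not be placed on a chromosome and were strung together end to end. A position on it is a place in the string and not a place in the fly genome. In Drosophila, the DNA that resists assembly is mostly heterochromatin, the compact chromatin around the centromeres and on the Y chromosome, where satellite repeats, transposable elements and ribosomal RNA genes occur in many similar copies. U is a second string of unplaced scaffolds in the same release. Tango, a bHLH-PAS transcription factor, pairs with other proteins of its family to bind DNA, as its counterpart ARNT does in vertebrates, while TCF is a name for the transcription factor of the Wingless pathway. No genome of release 5 was used, so neither the genes nor the sequences under the peaks were analysed here.

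Peaks on Uextra were regularly spaced. Their midpoints tended to lie at whole multiples of one distance, which was 800 bp between 16 and 18 Mb of the string, and this distance shortened step by step along the string. Taken over their whole length and not in windows, U and the chromosome arms showed no such spacing. For each window of 2 Mb, every pair of peaks with midpoints 400 to 8000 bp apart was taken, and periods from 500 to 1100 bp were tried in steps of 5 bp. The period reported is the one that gave the longest mean vector when the distances were wrapped around it. A vector length of 1 stands for exact multiples. The length reported is the largest over all periods tried, so distances without a period also give a length above 0, more so with few pairs.

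The windows between 8 and 28 Mb held 5500 of the peaks. From the first to the last of these 10 windows the period was 880, 855, 835, 820, 800, 785, 775, 760, 735 and 705 bp. It was thus shorter than in the window before at 9 of 9 steps. Vector lengths were 0.36 to 0.76 with a median of 0.65, over 690 to 1512 pairs per window. The spacing was sharpest at 18 to 20 Mb, with a vector length of 0.76, and weakest at 26 to 28 Mb, with 0.36. Between 4 and 6 Mb and between 6 and 8 Mb the periods were 1000 and 930 bp, with vector lengths of 0.37 and 0.38 over 293 and 261 pairs. Adding these windows gave 11 falling steps of 11.

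The ends of the string differed from its middle. Before 4 Mb only 47 and 136 pairs were available in the windows of 2 Mb, and no period is read from them. Beyond 28 Mb, where pairs were plentiful at 1427, the vector length was 0.074 and the best period lay at the edge of those tried. The groups off Uextra were not cut into windows, so a period that changes along them could be missed. On the arms the vector length was 0.073 over 2262 pairs, and on U it was 0.12 over 441 pairs. The mapped heterochromatin, whose pieces have a known chromosome, gave 0.12 over 433 pairs. On the arms with more than 300 pairs each, taken singly, X gave 0.10, 3L 0.11, 2R 0.099, 3R 0.094 and 2L 0.076. Pairs of peaks share members and are not independent, so no p-value is attached to these lengths.

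**Figure D1:**
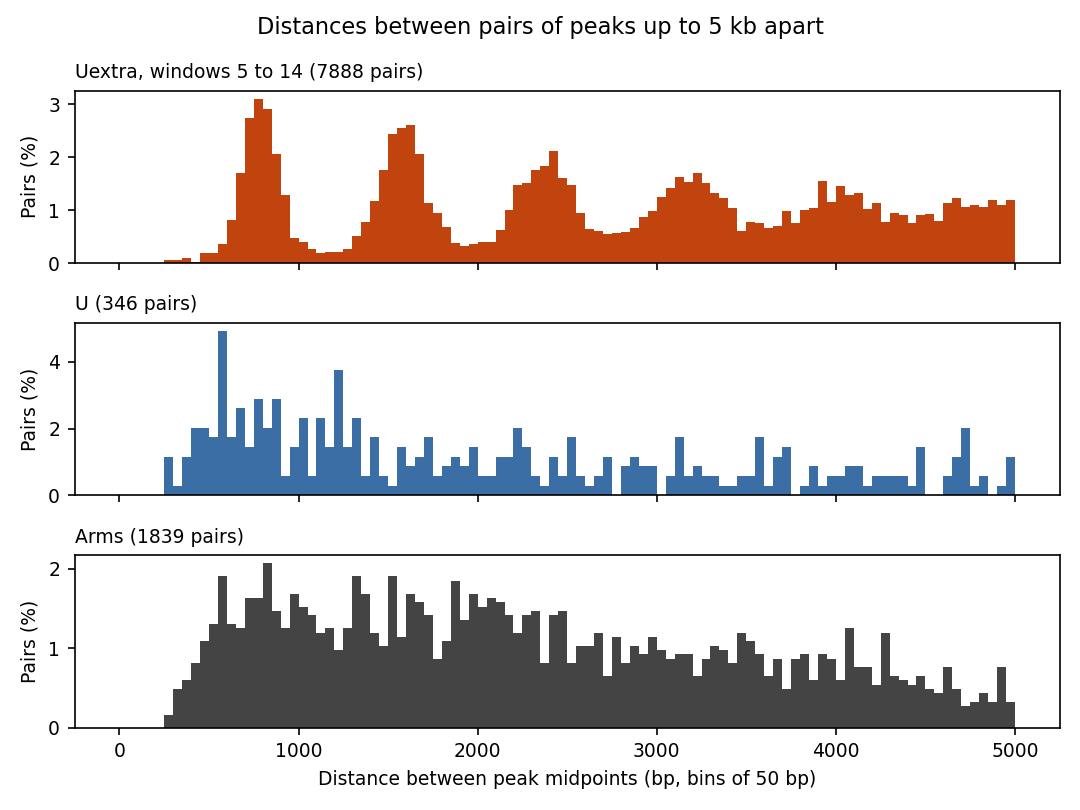
Distances between midpoints of all pairs of peaks up to 5 kb apart, as the percent of pairs in bins of 50 bp, for Uextra between 8 and 28 Mb (windows 5 to 14), U and the arms. The Uextra distances rise and fall in a regular series that blurs at longer distances, where windows with periods from 880 to 705 bp are pooled, while U and the arms show no such series.

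**Figure D2:**
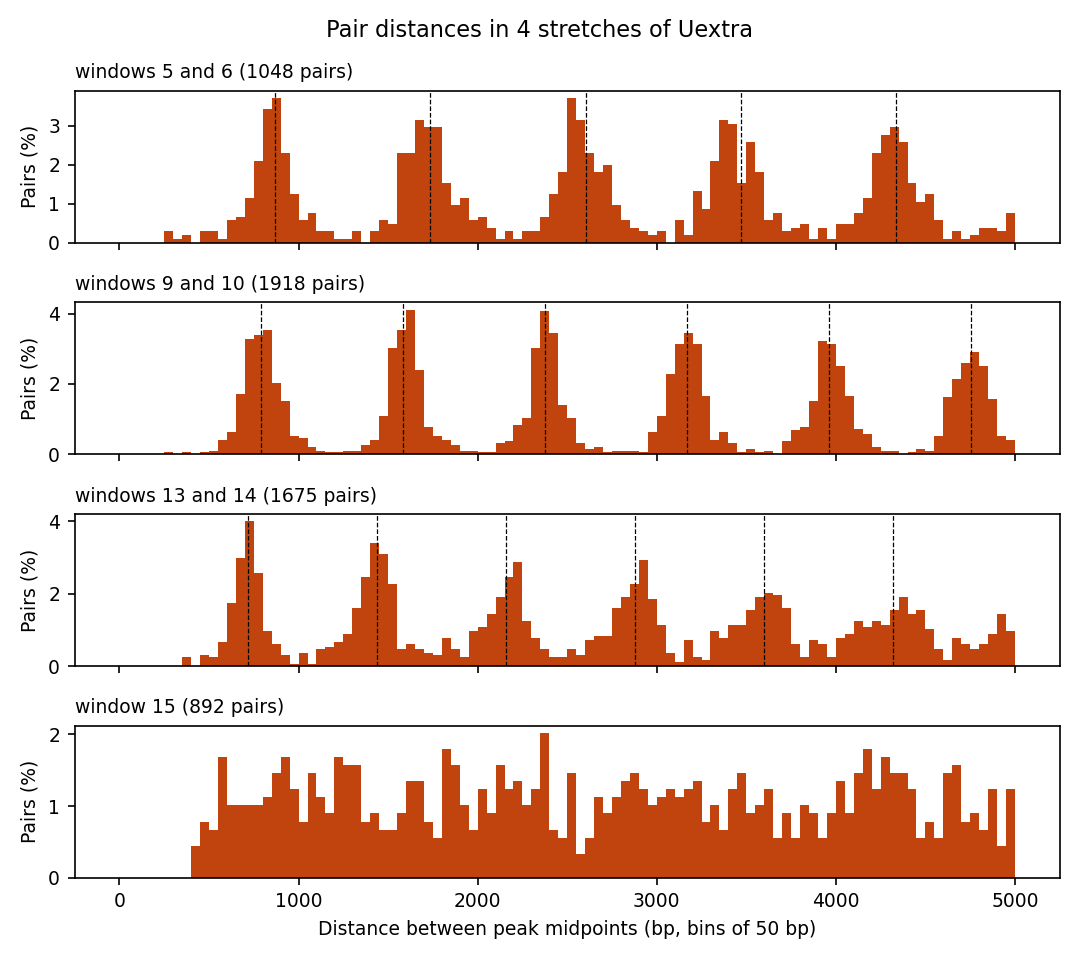
The same distances in 4 stretches of Uextra: windows 5 and 6 (8 to 12 Mb), 9 and 10 (16 to 20 Mb), 13 and 14 (24 to 28 Mb) and window 15 (beyond 28 Mb). Dashed lines mark multiples of the mean period of the 2 windows; the series draws together from top to bottom and is absent in window 15.

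The spacing also showed in the distances between direct neighbours. In the windows from 8 to 28 Mb, 3567 neighbour distances lay from 0.75 to 4.25 periods, where 4 whole multiples and the stretches between them are covered. Of these, 3276 (91.8%) lay within 0.25 of a whole number of periods, a zone that takes up 57.1% of that range. Neighbours 1 period apart numbered 1200, those 2 periods apart 957, those 3 apart 645 and those 4 apart 474. Peaks did not fill every step of the series: per period of length there were 0.18 to 0.24 peaks. The period was fitted on these same peaks, so the shares describe the fit and are no test of it.

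The gaps between the end of a peak and the start of the next showed the series without any fitted period. On the whole of Uextra, 425 of 6712 gaps were 300 to 399 bp long, and the number fell to 64 at 800 to 899 bp. It rose again to 307 at 1100 to 1199 bp, fell to 49 at 1500 to 1599 bp and rose to 183 at 1900 to under 2000 bp. A further maximum of 125 gaps lay at 2700 to 2799 bp. On Uextra, gaps under 1 kb made up 27.2% of all gaps (95% Wilson interval 26.2 to 28.3%, which covers counting error only and treats gaps as independent), and the median gap was 1988 bp. The arms had more gaps under 1 kb, 36.7% (34.7 to 38.6%), and a median gap of 11177 bp. The mapped heterochromatin had 49.1% (43.8 to 54.4%) and a median gap of 1088.5 bp, shorter than that of Uextra. On U 29.9% of gaps were under 1 kb (25.9 to 34.2%) with a median of 5879 bp. In the top 50% by score U had fewer such gaps than Uextra, 12.7% against 18.9%. The order of Uextra and the arms turned among peaks under 1 kb wide (26.7% against 20.7%), in the top 50% by score (18.9% against 17.9%) and after joining gaps under 500 bp (9.92% against 7.81%). The smallest gap was 50 bp in each of these groups.

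Peak width kept below the period. In the windows from 8 to 28 Mb the median width was 348 to 457 bp and the 95th percentile 597.7 to 714.6 bp. Only 61 of the 5500 peaks (1.11%) were wider than the period of their own window. Over the whole of Uextra 122 of 6713 peaks (1.82%, interval 1.52 to 2.17%) were wider than 880 bp, the longest of the 10 periods. On U 12.3% (9.61 to 15.5%), on the mapped heterochromatin 24.4% (20.1 to 29.2%) and on the arms 29.9% (28.04 to 31.7%) exceeded that width. Uextra therefore held few wide peaks, and its 95th percentile of width, 696 bp, compared with 1348.8 bp on U and 4249.6 bp on the arms. The median width on Uextra, 392 bp, was close to that on U, 383 bp (rank intervals 389 to 399 and 366 to 406 bp), and below that on the arms, 575 bp (551 to 593 bp). Widths at the lower bound of the list were the most common: 115 Uextra peaks were 201 bp wide, and the next most frequent widths were 206, 202, 208 and 211 bp, with 39 to 32 peaks each.

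**Figure D3:**
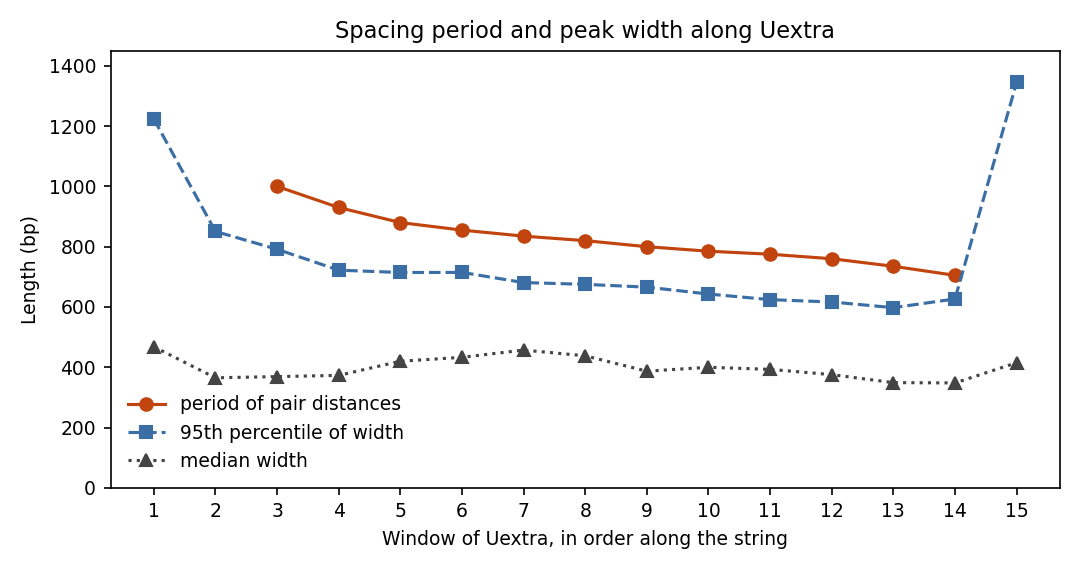
Period of the pair distances (circles), 95th percentile of peak width (squares) and median peak width (triangles), in bp, for the windows of Uextra in order along the string (windows 1 to 14 of 2 Mb, window 15 beyond 28 Mb). The period falls from 1000 to 705 bp over windows 3 to 14, and the 95th percentile of width stays below it there; periods of windows 1, 2 and 15 are not drawn.

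The scaffold boundaries of Uextra were not used. Their part in the spacing, in the widths, in the likeness of neighbours and in the joined regions was not tested. Of the 10 widest peaks, 4 lay in the first Mb, 5 beyond 28 Mb and 1 elsewhere. The widest was Uextra 195940 to 199127, 3188 bp wide with a score of 47.66, followed by 213335 to 216506 (3172 bp, score 38.57) and 271576 to 274375 (2800 bp, score 109.56). The remaining one of the first Mb, 597408 to 599086, was 1679 bp wide and had the highest score of the 10, 804.24. The 5 wide peaks beyond 28 Mb were 1981 to 2776 bp wide, and their scores ran from 176.77 for 28989971 to 28992746 up to 566.39 for 28555007 to 28557527. The exception in the middle of the string, 21539479 to 21541291, was 1813 bp wide and scored 602.71. The widest peaks of Uextra thus covered a broad range of scores, and those of over 3 kb were among the weaker of the 10.

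The peak score was next examined, since neither labels nor file state which statistic it is. The scores behaved as a set of steps. They matched −log10 of the upper-tail probability of a Poisson distribution with a mean of 124.594, evaluated at whole numbers. The mean was fitted on the 2355 arm peaks and then applied to Uextra, where 6618 of 6713 scores (98.6%) lay within 0.02 of such a value. This tolerance on both sides of the steps takes up 12.4% of the score axis where these peaks lie. A separate fit on Uextra gave the same mean, 124.594. Scores were printed to hundredths, and the median distance from the nearest step was 0.0027. In the lower 75% of the matched peaks, each of the 142 whole numbers from 186 to 327 occurred. The whole number behind a score is called its implied height here, and its ratio to 124.594 the implied fold. Both are read from the score and are not measured coverage.

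On this scale most Uextra peaks were low. The lowest implied height was 186, or 1.49-fold, the median 2.03-fold and the quartiles 1.78- and 2.62-fold. Of the 6618 peaks with an implied height, 3193 (48.2%) stayed under 2-fold and 5525 (83.5%) under 3-fold. The arms had a median of 1.96-fold and U of 1.81-fold, with 54.7% and 74.6% under 2-fold. The highest peak on Uextra reached 12.3-fold, the highest on the arms 11.3-fold and the highest on U 9.76-fold. A −log10 probability grows with read depth as well as with the fold, so the same score can stand for another fold in another data set.

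Uextra had fewer peaks of low score than U and the arms and more in the middle of the range. Scores under 25 were held by 51.4% of Uextra peaks (interval 50.2 to 52.6%), 79.1% of U peaks (75.2 to 82.5%) and 59.8% of arm peaks (57.8 to 61.8%). Between 25 and 100 lay 2573 Uextra peaks (38.3%, interval 37.2 to 39.5%), against 14.4% (11.5 to 17.8%) on U and 30.0% (28.2 to 31.9%) on the arms. At 400 or more the shares were 2.82% (2.45 to 3.24%) on Uextra, 2.75% (1.61 to 4.65%) on U and 1.49% (1.07 to 2.06%) on the arms. A score of 100 or more was reached by 687 Uextra peaks (10.2%, 9.53 to 11.0%), by 9.79% of the whole list and by 10.2% of arm peaks (9.03 to 11.5%). At the 90th percentile of the list, a score of 97.58, 701 Uextra peaks (10.4%, 9.73 to 11.2%) stood at or above it, against 10% of the list by construction, 10.5% of arm peaks (9.35 to 11.8%) and 6.55% of U peaks (4.66 to 9.15%). In the top 50% by score the order of Uextra and U turned, with 19.3% of Uextra peaks and 24.4% of U peaks at or above that score. Over all peaks of the mapped heterochromatin the share at or above it was 2.65% (1.40 to 4.95%). The share of strong peaks on Uextra as a whole was near that of the list. Uextra makes up 67.9% of the list, so these shares are not independent.

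The share of strong peaks on Uextra came from unlike parts of the string. In the 4 windows of 2 Mb before 8 Mb the share of peaks at 100 or more was 7.37%, 9.73%, 13.3% and 11.0%. In the windows of 2 Mb from 8 to 22 Mb it fell from 9.11% of peaks at 100 or more to 2.60%, and it then rose to 7.14% at 22 to 24 Mb, 7.76% at 24 to 26 Mb and 17.4% at 26 to 28 Mb. Beyond 28 Mb it was 60.5%. Without the 405 peaks there, the share on Uextra was 7.01% (6.403 to 7.66%), below the 10.2% of the arms. That comparison is one-sided: the stretch was chosen after seeing the list, and no strong stretch was taken out of the arms. The same 405 peaks, 6.03% of those on Uextra, made up 35.5% of its peaks in the top 10% of the list and 33.3% of those in the top 1%. The median implied fold was 4.40 for the 338 of them on the Poisson steps, against 2.00 for the 6280 other Uextra peaks on the steps. The 67 peaks beyond 28 Mb that were off the steps have no implied fold.

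**Figure D4:**
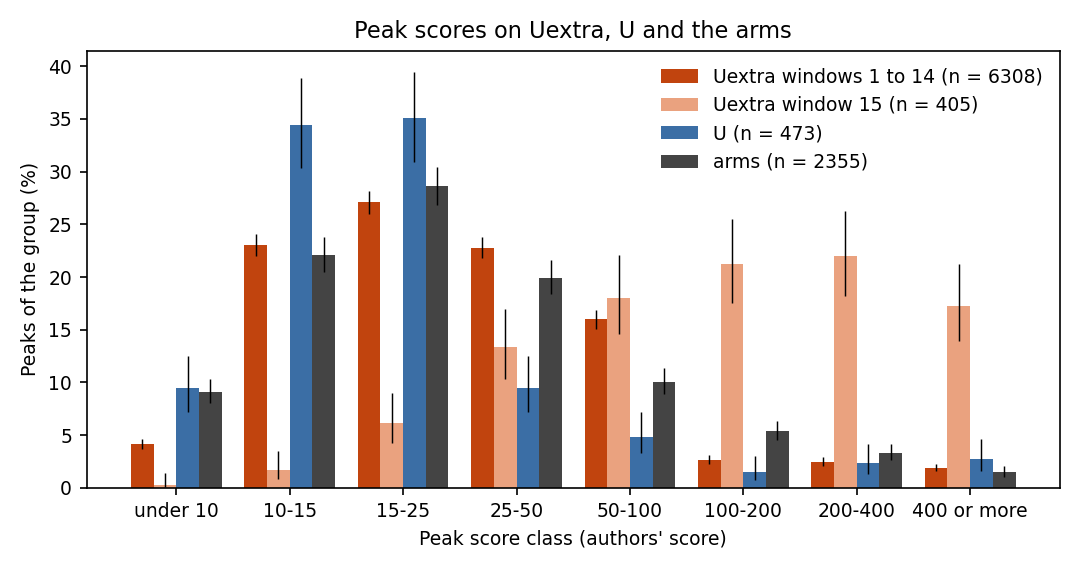
Percent of peaks in each class of the authors' score for Uextra up to 28 Mb (windows 1 to 14), Uextra beyond 28 Mb (window 15), U and the arms; error bars are 95% Wilson intervals. Up to 28 Mb Uextra exceeds U and the arms between 50 and 100, and beyond 28 Mb 17.3% of peaks score 400 or more.

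Within the stretch beyond 28 Mb the strong peaks were not even either. In successive bins of 100 kb the median score was 67.94, 60.145 and 67.455 in the first 3 bins and 116.87 to 311.7 in the other 7. The number of peaks per bin went from 26 to 59, and the covered share of a bin from 11.6% to 34.7%. The densest bins were the last 5, with 24.6% or more of their length under peaks. Gaps were shorter there than in the rest of the string, with a median of 904 bp beyond 28 Mb against 2062 bp before it.

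Scores off the Poisson steps were also concentrated beyond 28 Mb. Of the 95 such peaks on Uextra, 67 lay there, which is 16.5% of its peaks (interval 13.2 to 20.5%). In the rest of Uextra it was 28 of 6308 (0.44%, 0.31 to 0.64%). Since strong peaks could differ in this respect, those scoring 100 or more were taken alone: 28 of 245 beyond 28 Mb (11.4%, 8.03 to 16.02%) and 13 of 442 elsewhere on Uextra (2.94%, 1.73 to 4.97%) were off the steps. On the arms it was 12 of 240 (5.00%), and on U 0 of 31, too few peaks to set against these shares. Among U peaks of any score it was 0 of 473, with a Wilson interval up to 0.806%. A score off the steps fits no whole number at the mean used. The background that the peak caller set for these peaks is not stated.

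The 20 highest-scoring peaks scored 705.45 to 1060.24, which is 9.54- to 12.3-fold in implied height, and all 20 lay on the steps. The highest was Uextra 25004608 to 25005454 (847 bp, implied height 1531). It was followed by 26958795 to 26959373 (579 bp, score 889.61), and by 10087028 to 10087906 and 28191574 to 28192270, which both scored 855.4 at widths of 879 and 697 bp. Of the 20, 4 lay beyond 28 Mb, 5 between 26 and 28 Mb, 2 between 24 and 26 Mb, 6 between 8 and 24 Mb and 3 before 8 Mb. Their widths ran from 489 bp for 8510974 to 8511462 (score 705.45) to 1679 bp for 597408 to 599086 (score 804.24), with a median of 706 bp. The 9 beyond 26 Mb are 45% of the 20, and that stretch held 14.6% of all Uextra peaks (980). The last place was a tie: 28323962 to 28324663 (702 bp) and 28325318 to 28325891 (574 bp), both beyond 28 Mb, also scored 705.45. Ties were broken by position, so these peaks were left out of the 20. The counts by place, the 45% and the smallest width depend on that choice. The 20 were chosen by score, so the shares are a description.

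Of the 40 peaks directly before or after the 20, 29 (72.5%) scored under 100, against 89.8% of all Uextra peaks. The median neighbour scored 40.685 (range 9.08 to 541.6), against 24.31 for all Uextra peaks. Neither comparison was matched by place in the string. Of the 20, 9 lay beyond 26 Mb, and the median score of all peaks beyond 28 Mb was 149.47. The gap to the 40 neighbours was 2110.5 bp at the median and under 500 bp in 5 cases.

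Neighbours were then compared over the whole of Uextra. The scores of adjacent Uextra peaks differed by 2.06-fold at the median (rank interval 2.01 to 2.11), against 1.72-fold on the arms (1.67 to 1.79) and 1.502-fold on U (1.44 to 1.61). The mapped heterochromatin gave 1.35-fold (1.31 to 1.42). On Uextra the difference was about as large for near as for far neighbours: 2.11-fold (1.86 to 2.49) for gaps under 200 bp, 2.04-fold (1.95 to 2.15) from 200 to under 500 bp and 2.11-fold (1.99 to 2.21) from 5000 bp. Arm peaks were more alike when close, at 1.39-fold (1.34 to 1.44) under 200 bp and 1.46-fold (1.40 to 1.54) from 200 to under 500 bp, against 2.19-fold (2.12 to 2.36) from 5000 bp. On U the values were 1.29-fold (1.20 to 1.48) under 200 bp and 1.64-fold (1.499 to 1.80) from 5000 bp. Adjacent peaks on Uextra were thus no more alike in score at gaps under 500 bp than at 5000 bp or more. Between these classes the values were uneven. The lowest was 1.82-fold (1.68 to 2.02) from 500 to under 1000 bp, against 2.13-fold (2.03 to 2.22) from 2000 to under 5000 bp. The rank intervals of Uextra at gaps under 500 bp lay above those of the arms. Peaks adjacent in the string of Uextra may lie on different scaffolds, unlike those on an arm, and the part of this was not tested. The medians over all gaps depended on the peaks taken: in the top 50% by score Uextra stood at 1.80-fold and U at 2.06-fold, and after joining gaps under 500 bp Uextra and the arms both stood at 2.13-fold. Without the stretch beyond 28 Mb the values on Uextra were 1.99-fold (1.73 to 2.42) under 200 bp and 2.04-fold (1.93 to 2.14) from 200 to under 500 bp.

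**Figure D5:**
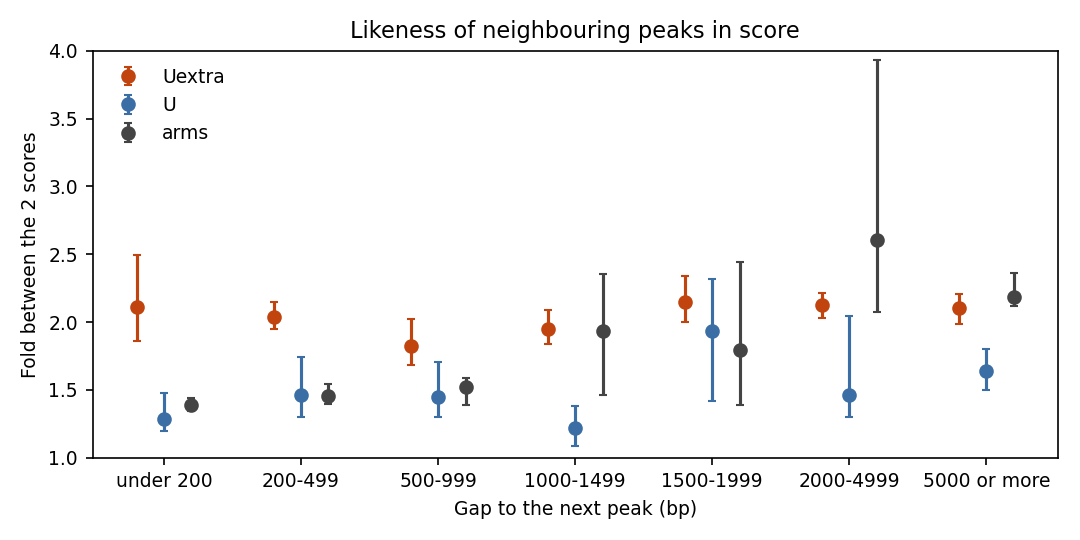
Median fold between the scores of adjacent peaks by the gap between them, for Uextra, U and the arms; bars are 95% rank intervals of the median. Uextra stays between 1.82 and 2.15 in all gap classes, while the arms go from 1.39 under 200 bp to 2.19 at 5000 bp or more.

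Joining peaks across gaps under 500 bp gave 5425 regions on Uextra, of which 4414 (81.4%) were single peaks, 803 held 2 peaks, 158 held 3 and 50 held 4 or more. The longest was 7527 bp, against 43639 bp on the arms. The regions with the most peaks held 7 each and both lay beyond 28 Mb. At Uextra 28718617 to 28726143, peaks of 68.41, 306.27, 503.68, 90.73, 633.92, 408.16 and 120.87 followed each other. The 3 of these above 400 were 1370, 1378 and 1408 bp wide and the others 303 to 412 bp, so strong wide and weaker narrow peaks lay side by side. At 28899384 to 28905623 the 7 scores ran from 60.14 to 351.3, with the highest in the widest peak, of 1670 bp. The third, at 14288206 to 14292748, lay where the spacing was regular, and its 6 peaks scored 11.93, 54.85, 19.48, 26.23, 28.21 and 48.08. This weaker region contrasts with the other two in score and in width, its widest peak being 590 bp.

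Peaks of equal width and equal score were counted last. On Uextra 1071 peaks (15.95%, interval 15.1 to 16.8%) shared both with another peak of the list, on U 20.3% (16.9 to 24.2%) and on the arms 10.1% (8.95 to 11.4%). The share on the mapped heterochromatin, 16.5% (12.9 to 20.8%), was near that on Uextra. Scores fall on steps and widths crowd near the lower bound, and 95.7% of Uextra peaks shared their score alone with another peak. The part of this in the equal pairs was not tested, and equal pairs were not counted by width. In the top 50% by score the shares were 5.11% on Uextra, 2.36% on U and 1.57% on the arms. Among Uextra peaks scoring 100 or more, 3 of 687 had such a partner. Equal scores without equal widths occurred up to the top of the list, as in the pair at 855.4, and 22318308 to 22318998 shared its score of 740.97 with the arm peak 3R 11054707 to 11055736. Equal values do not show equal sequence, which was not analysed here.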

How the data were processed

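The authors deposited 1 peak list for the series, which names FlyBase release 5 and MACS, per the file headers. Per the submitters' processing notes, MACS2, BWA and CASAVA (1.7.0.2 and 1.7.0.3) were used with the build BDGP5. The list gives a start, an end and a score per peak, deposited by the authors; not given in the sources used here are the threshold, read filters, handling of reads with several matches and pooling of replicates. Depth per library is unknown. Widths are end minus start plus 1. Peaks were grouped by sequence name, and columns of other samples numbered 0. The members, windows, limits and measures were chosen with earlier results of these data known. Regions named are the 20 highest and 10 widest Uextra peaks, the 3 joined regions with most peaks, the 5 commonest widths and the fullest and emptiest bins of 1 Mb; others were chosen after their values were seen. Spacing, the Poisson steps, the limit of 100 and the stretch beyond 28 Mb were chosen after seeing the list. Coordinates of the release 6 gene table were not used. Peaks of 1 list are not replicates, so no p-value was computed. Functions were tried on simulated data. Values were computed with scipy 1.17.1, numpy 2.4.6 and pandas 2.3.3 in Python 3.11.15 and drawn with matplotlib 3.10.9.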

Additional observations from a re-analysis of the deposited data

How the results depend on the processing

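No paired analysis was possible because single libraries have no values in the deposited list, and no library could be set aside for that reason. Read depth is unknown too. The period kept its fall under each alternative tried for it: with neighbouring peaks only, pairs up to 4 kb, starts, ends, the top 50% by score, peaks under 1 kb or gaps under 500 bp joined, all added after seeing the data, it fell at 9 of 9 steps, and the period at 8 to 10 Mb left 880 bp by over 5 bp only with pairs up to 4 kb (900 bp). Vector lengths were 0.16 to 0.37 with gaps joined, against 0.36 to 0.76. In the top 50% by score, a set chosen by the score itself, the median width was 494.5 bp, the share at or above the 90th percentile 19.3%, gaps under 1 kb 18.9%, equal pairs 5.11%, the fold between neighbours 1.80 and the share of covered bases in the fullest 3 bins of 1 Mb 20.8%, against 17.1% for all peaks. In that set U had a median width of 586 bp, 24.4% of peaks at or above the 90th percentile, 12.7% of gaps under 1 kb, a neighbour fold of 2.06 and 2.36% equal pairs, so its order against Uextra turned in all 5; the cause was not tested. With gaps under 500 bp joined the Uextra values, in the order first given, were 446 bp, 11.7%, 9.92%, 10.3%, 2.13 and 17.7%. The fold on the arms was then also 2.13, so the difference in fold between Uextra and the arms was gone. Joining removes short gaps and also gives each region the highest score of its peaks, and the cause was not tested. Among peaks under 1 kb the share at or above the 90th percentile was 9.58% and that in the fullest bins 15.9%. Without the stretch beyond 28 Mb the share at or above the 90th percentile was 7.17%, gaps under 1 kb 25.5%, the fullest bins 15.5%, the median implied fold 2.00, the share on the Poisson steps 99.6% and the share scoring 100 or more 7.01%. By construction other limits gave 28.5% at the 75th and 5.66% at the 95th percentile, gaps of 19.2% under 500 bp and 50.2% under 2 kb, partners for 95.7% by score alone, 98.9% by width alone and 90.7% within 2% of both, 17.5% and 17.7% in the fullest bins of 500 and 250 kb, and 94.99% on the steps within 0.01. For Uextra, the other combinations run stayed within the interval of the value reported, or within 5 bp for a period.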

Other observations

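By number of peaks the fullest bin of 1 Mb on Uextra was the last, with 405 peaks covering 214.3 kb, and the emptiest the first, with 36 peaks covering 27.6 kb. The median gap was shorter further along the string but, unlike the period, did not fall at every step. It was 9819.5 bp in the first 2 Mb, 4223 bp at 4 to 6 Mb, 4915 bp at 6 to 8 Mb and 2958.5 bp at 8 to 10 Mb. Among the windows up to 28 Mb it was lowest at 16 to 18 Mb, 1689 bp, and it was 1806 bp at 26 to 28 Mb.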
